A study of Mus musculus with 8 samples.

Results

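The alpha and microsomal glutathione transferases of the mouse were described across 4 groups of arrays. Members were chosen by gene symbol: the 4 alpha class genes Gsta1, Gsta2, Gsta3 and Gsta4 and the 3 microsomal genes Mgst1, Mgst2 and Mgst3. These 7 genes were read by 9 probes, and all 7 were among the 23177 targets tested, where a target is a gene symbol or a probe without one. The cells were mouse embryonic fibroblasts (MEFs) of a wild-type line (WT) and of a line with the genotype Keap1-/- (Keap1 null). Both lines are also labelled TR, an abbreviation that is not explained. RNA was taken from cells grown in dishes and from tumours grown from injected cells in nude (nu/nu) mice (allografts), with 2 arrays in each of the 4 groups. The submitters state an injection of 10000000 cells for WT and 3000000 for Keap1 null, a tumour volume of 100 to 150 mm3 at harvest, and 500 ng of RNA per labelling. Each genotype is 1 line, so line and genotype cannot be told apart. Whether the arrays of a group came from separate cultures or animals is not stated, and p-values measure the spread between these arrays, which may be technical. The strain and age of the hosts are not given in the sources used here. The tumours are mouse cells in mouse hosts, so a probe does not separate transcripts of the injected cells from those of host cells.

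Glutathione transferases join the tripeptide glutathione to reactive, electrophilic molecules, which makes them more soluble and ready for export. The alpha class enzymes are soluble, carry out this reaction in the cytosol and also reduce lipid hydroperoxides. The microsomal enzymes are unrelated in fold, sit in membranes and belong to the MAPEG family (membrane-associated proteins in eicosanoid and glutathione metabolism), which also makes leukotrienes and prostaglandins. KEAP1 holds the transcription factor NRF2 (gene Nfe2l2) for degradation, and several glutathione transferase genes are textbook targets of NRF2, which binds the antioxidant response element.

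All values below are log2 scaled signals, the log2 of the processed spot intensity minus the 75th percentile of its array, so that 0 is the level of that percentile. They compare groups for 1 probe and do not rank genes against each other. A change was called when limma gave a Benjamini-Hochberg adjusted p below 0.05 over all targets. A fold written as "at least" is a bound under this processing. It is used where no array of the dimmer group, but both of the brighter, were well above background. An adjusted p printed beside such a fold belongs to the fitted change from the signals as read, and does not test the bound. An exact permutation test of 2 arrays against 2 cannot go below 0.333, so none was made.

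Gsta1, Gsta2 and Gsta4 lie on chromosome 9 in the RefSeq table of GRCm38.p6, with 1 annotated gene between Gsta4 and Gsta1 and 6 between Gsta1 and Gsta2. RefSeq windows upstream of a start site were given for 6 of the 7 members, 7 windows in all. The next sequences, on GRCm38.p6, are shown because Gsta1 and Gsta2 moved together on the arrays. They were cut to the bases outside the annotated span of the gene, and capitals mark the longest run of bases that both share, 29 bases.
Gsta1, chr9:78230419-78230668, plus strand: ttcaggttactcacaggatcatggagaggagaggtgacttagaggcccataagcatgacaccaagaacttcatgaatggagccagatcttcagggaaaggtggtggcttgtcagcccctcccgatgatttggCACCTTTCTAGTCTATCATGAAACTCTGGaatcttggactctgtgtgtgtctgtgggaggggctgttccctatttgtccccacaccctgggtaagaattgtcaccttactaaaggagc
Gsta2, chr9:78347193-78347395, minus strand: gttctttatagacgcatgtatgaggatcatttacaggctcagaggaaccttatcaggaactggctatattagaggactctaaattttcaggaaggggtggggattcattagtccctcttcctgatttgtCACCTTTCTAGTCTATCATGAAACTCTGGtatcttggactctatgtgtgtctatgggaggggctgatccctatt
The alignment held 197 base pairs, of which 75.1% were identical. Because Gsta1 and Gsta2 are close copies, signal of one could reach the probe of the other, and which copy each probe read was not tested.

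The letters TGACNNNGC, the core of the antioxidant response element, were searched on both strands of the 250 bases upstream. They were found in 10.2% of the 32851 RefSeq windows of that length. Of the members, Gsta3 and Mgst1 held a match, and their windows are shown for that reason, with the match in capitals. The Gsta3 window is cut at the annotated span of the gene, as above, and positions count from the start site, in the full 250 bases.
Gsta3, chr1:21240335-21240564, plus strand: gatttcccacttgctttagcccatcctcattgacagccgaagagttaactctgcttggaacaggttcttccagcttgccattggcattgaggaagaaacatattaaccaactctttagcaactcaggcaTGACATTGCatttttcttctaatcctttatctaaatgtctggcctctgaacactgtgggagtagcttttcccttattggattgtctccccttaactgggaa
Mgst1, chr6:138140277-138140526, plus strand: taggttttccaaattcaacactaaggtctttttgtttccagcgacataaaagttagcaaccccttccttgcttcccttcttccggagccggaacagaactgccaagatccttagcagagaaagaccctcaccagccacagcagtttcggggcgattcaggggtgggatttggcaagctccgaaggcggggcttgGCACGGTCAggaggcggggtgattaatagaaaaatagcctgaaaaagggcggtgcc
The Gsta3 match ran from 121 to 113 bases upstream on the strand of the gene. The Mgst1 match ran from 56 to 48 bases upstream on the opposite strand. The windows of Gsta1, Gsta2, Mgst2 and Mgst3 and the second window of Mgst1 held no match, which says only that these letters are not in those windows. Of the other motifs searched, also on both strands, the Mgst2 window held TATAAA from 32 to 27 and TGACTCA, an AP-1 site, from 52 to 46 bases upstream. TATAAA stood in 12.4% and TGACTCA in 4.46% of all windows. GGGCGG, the GC box, stood 2 times in the Mgst3 window and 1 time in the Mgst1 window, and in 32.7% of all windows. TATAAA was also found in the Gsta2 window, on the opposite strand, from 246 to 241 bases upstream. A match is a description of letters and no evidence of binding.

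Keap1 was read first, as the targeted gene. Its signal was 3.32 and 2.99 in WT dish, 2.37 and 2.22 in Keap1 null dish, 2.85 and 2.46 in WT allograft, and 1.00 and 0.92 in Keap1 null allograft. The Keap1 null arrays lay below the WT arrays in both settings, by 1.82-fold in dish (limma adjusted p = 0.0197) and 3.23-fold in allograft (adjusted p = 0.000721). Signal well above background remained in the Keap1 null arrays, and whether the probe lies in the deleted part is not recorded in the files. Nfe2l2, which encodes NRF2, differed by 0.07 ± 0.10 (SE) in dish (adjusted p = 0.744), and in allograft the Keap1 null arrays stood 1.52-fold above WT (adjusted p = 0.00532).

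The share of probes well above background ranged from 60.6% to 64.5% in dish and from 69.7% to 74.7% in allograft, and no spot was saturated. Of 11 fibroblast markers, Fap stayed in the background on every dish array and Lum did so in WT dish. On both arrays, 9 of the 11 were well above background in WT dish, 10 in Keap1 null dish and all in the allografts. The summed scaled signal of the macrophage markers ranged from 0.134 to 0.180 over the dish arrays, from 90.4 to 104 in WT allograft and from 18.7 to 19.2 in Keap1 null allograft. Endothelial, mast cell, neutrophil, red cell and adipocyte marker sums were likewise higher on every allograft array than on every dish array. Skeletal muscle sums were 6.08 and 2.55 in WT allograft and 24.4 and 12.6 in Keap1 null allograft, against 2.47 and 2.04 in WT dish and 4.08 and 3.66 in Keap1 null dish. Skeletal muscle sums thus overlapped between dish and WT allograft arrays. Keratinocyte sums and lymphocyte sums overlapped between dish and Keap1 null allograft arrays. In such bulk RNA, fewer cells of a type and less RNA per cell cannot be told apart.

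**Figure D1:**
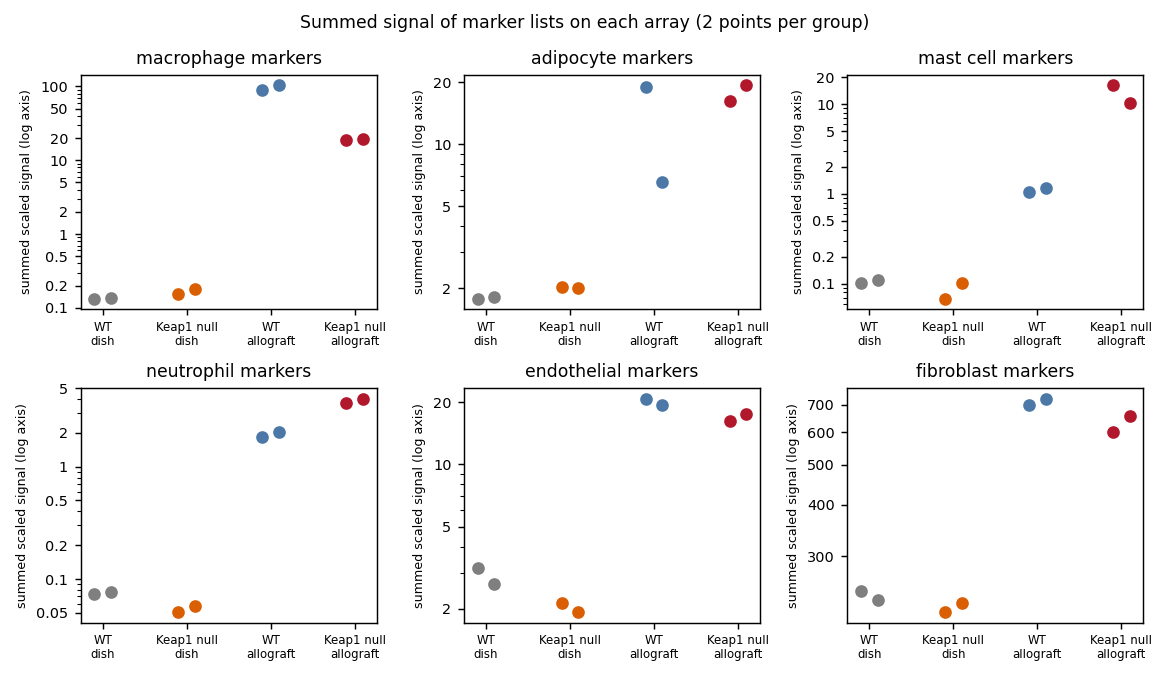
Summed scaled signal (log axis) of 6 lists of cell type markers on each of the 8 arrays, with 2 points per group. Macrophage markers reached 90.4 to 104 in WT allograft and 18.7 to 19.2 in Keap1 null allograft against at most 0.180 in dish, and the WT allograft arrays differed in adipocyte markers (18.9 and 6.51).

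In dish culture, 5 of the 7 transferases were higher in Keap1 null than in WT cells, beside 11.4% of all targets, and 1 was lower, beside 9.68%. The median change over the members was 6.06 on the log2 scale, against -0.05 over all targets. Fibroblast markers moved with this comparison too, with 7 of 11 called higher and 1 lower in Keap1 null dish and a median log2 change of 2.32, although their summed signal was 247 and 235 in WT dish and 220 and 231 in Keap1 null dish. Their part in the results was not tested. In allografts all 7 were higher in Keap1 null, beside 20.5% of all targets (21.2% were lower). Their median change was 2.41, against 0.01 over all targets. Between the genotypes in each setting, and between the settings in each genotype, the arrays of the groups did not overlap for any member. The share of all targets without overlap was not counted, and 2 arrays against 2 can separate without a difference. Genes that did not pass the test, such as Gsr and Gpx4 in dish, also had no overlap between the genotypes.

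**Figure D2:**
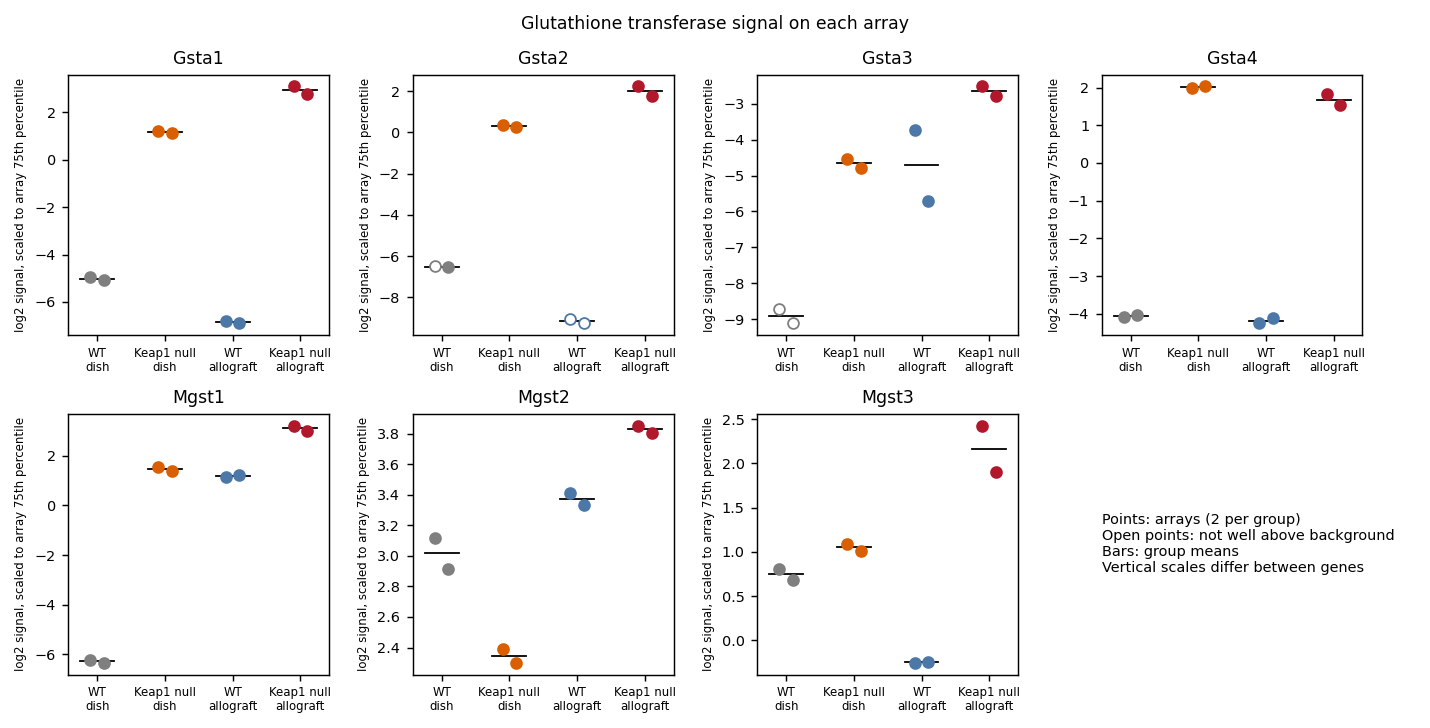
Log2 scaled signal of the 7 transferases on each array, with 2 points per group, bars at group means and open points for arrays not well above background. Gsta1 and Gsta2 were lowest in WT allograft (Gsta1 at -6.80 and -6.90) and highest in Keap1 null allograft (3.08 and 2.76), whereas Mgst1 was low in WT dish alone (-6.23 and -6.33).

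Among the alpha class genes, Gsta1, a major transferase of this class with activity toward lipid hydroperoxides, read -4.94 and -5.09 in WT dish and 1.19 and 1.11 in Keap1 null dish. It read -6.80 and -6.90 in WT allograft and 3.08 and 2.76 in Keap1 null allograft, and every one of these arrays was well above background. The null arrays were thus the high ones in both settings. Gsta1 was 71.9-fold higher in Keap1 null dish (log2 6.17 ± 0.13 SE, n = 2 and 2, limma adjusted p = 2.3e-05) and 875-fold higher in Keap1 null allograft (9.77 ± 0.13, adjusted p = 5.1e-06). Its WT allograft values lay near the lowest signals well above background on those arrays, -7.26 and -7.25. Normexp background correction, run as an alternative, adds an offset of 50 to each intensity, which shrinks changes from dim signals. With it the log2 changes were 4.91 in dish and 7.43 in allograft. The group means stood in the order Keap1 null allograft, Keap1 null dish, WT dish and WT allograft, and no neighbours in that order overlapped.

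Gsta2, the close copy of Gsta1, read -6.50 and -6.53 in WT dish, where only the second of these arrays was well above background, and 0.37 and 0.26 in Keap1 null dish. It read -9.04 and -9.26 in WT allograft, neither well above background, and 2.23 and 1.76 in Keap1 null allograft. Its groups stood in the same order as those of Gsta1. Gsta2 was 114-fold higher in Keap1 null dish (6.83 ± 0.18, limma adjusted p = 2.3e-05) and at least 609-fold higher in Keap1 null allograft (adjusted p = 5.1e-06). With normexp background correction the log2 changes were 4.25 in dish and 6.40 in allograft. The latter is under the bound given here, but the normexp offset shrinks such a change, so it does not test the bound.

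Gsta4, the alpha class enzyme known for conjugating hydroxynonenal, an aldehyde formed when membrane lipids are oxidised, had 10 spots per array, of which 8 to 10 were used. It read -4.08 and -4.03 in WT dish, 1.99 and 2.03 in Keap1 null dish, -4.25 and -4.12 in WT allograft, and 1.82 and 1.53 in Keap1 null allograft. The arrays split by genotype and lay close together across settings. Gsta4 was 66.9-fold higher in Keap1 null dish (6.06 ± 0.12, limma adjusted p = 2.3e-05) and 58.0-fold higher in Keap1 null allograft (5.86 ± 0.12, adjusted p = 6.89e-06).

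Gsta3, the mouse enzyme known for detoxifying the epoxide of aflatoxin, was near background in WT dish, at -8.71 and -9.12, and read -4.53 and -4.78 in Keap1 null dish. It read -3.72 and -5.70 in WT allograft and -2.52 and -2.79 in Keap1 null allograft. The WT allograft arrays differed by more than those of any other group, and they enclosed the Keap1 null dish arrays, so these neighbours in the order of means (-4.65 ± 0.18 SD and -4.71 ± 1.40) did not differ beyond their spread. Gsta3 was at least 4.02-fold higher in Keap1 null dish (limma adjusted p = 0.00566). In allograft it was 4.16-fold higher in Keap1 null (2.06 ± 0.61, adjusted p = 0.039), with within-slide differences of 1.20 and 2.91. That allograft call ended when any 1 array other than a WT allograft array was left out (adjusted p from 0.0612 to 0.145). Without the first WT allograft array the difference was 3.05, and without the second it was 1.07. The adjusted p of these fits, 0.00135 and 0.0301, rests on the spread of the other groups, since the lone WT allograft array has none and is assumed to vary like them. With normexp background correction the dish call ended, with a change of 0.75 (limma adjusted p = 0.147), which is under the bound given above. The normexp offset of 50 is large beside the mean intensities of 2.44 in WT dish and 51.3 in Keap1 null dish. It shrinks this change, so the value does not test the bound. The WT allograft array with the higher Gsta3 signal, 0.0759 against 0.0192 on the linear scale, also had the higher sums of adipocyte (18.9 against 6.51), skeletal muscle (6.08 against 2.55) and red cell markers (20.7 against 13.3). Its endothelial and keratinocyte sums were higher too, and its macrophage, neutrophil, lymphocyte, mast cell and fibroblast sums were lower. In Keap1 null allograft, the array with the higher Gsta3 signal had lower adipocyte (16.2 against 19.3) and red cell sums (17.9 against 31.6). Its skeletal muscle sum was higher (24.4 against 12.6). Of the 10 adipocyte markers, Adipoq, Plin1, Lep, Retn and Cfd stayed in the background on every dish array and Lep did so in all groups. The part of these cell types in the Gsta3 result was not tested.

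The second probe of Gsta3 gave the same calls as the brighter probe, with smaller changes in dish. When each probe was fitted on its own, its log2 change between genotypes was 3.03 ± 0.54 in dish (limma adjusted p = 0.0124) and 2.19 ± 0.54 in allograft (adjusted p = 0.021). It too was not well above background in WT dish, and it too read lower on the second WT allograft array, at -5.06 and -6.70.

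**Figure D3:**
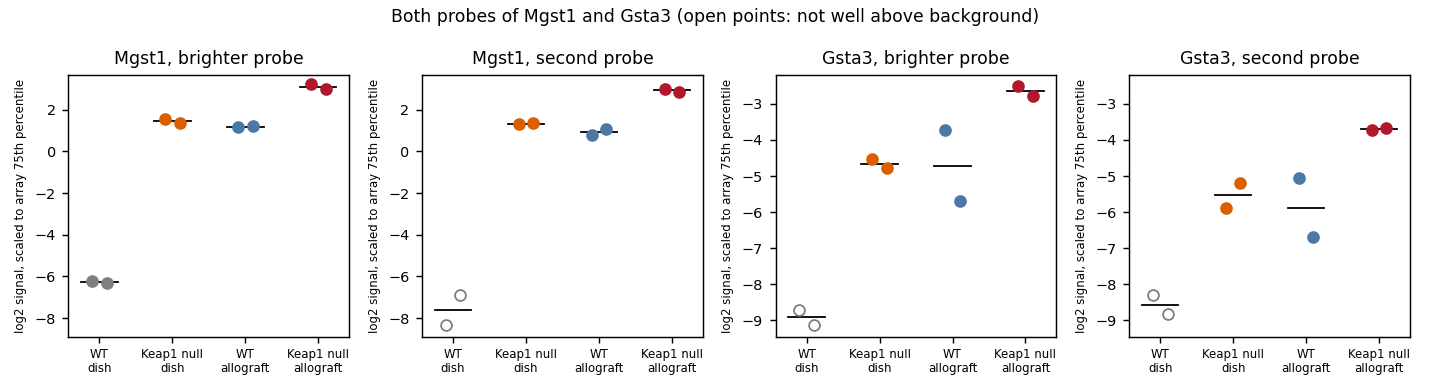
Log2 scaled signal of both probes of Mgst1 and of Gsta3 on each array, with open points for arrays not well above background and bars at group means. Both Mgst1 probes were low in WT dish only, and both Gsta3 probes read lower on the second WT allograft array (-5.70 and -6.70) than on the first (-3.72 and -5.06).

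Of the microsomal genes, Mgst1 encodes a transferase and peroxidase of the endoplasmic reticulum and the outer mitochondrial membrane. It read -6.23 and -6.33 in WT dish, 1.55 and 1.37 in Keap1 null dish, 1.17 and 1.21 in WT allograft, and 3.21 and 3.01 in Keap1 null allograft. WT dish was the low group, far below the others. Mgst1 was 214-fold higher in Keap1 null dish (7.74 ± 0.12, limma adjusted p = 2.11e-05) and 3.80-fold higher in Keap1 null allograft (1.93 ± 0.12, adjusted p = 9.77e-05). Its WT dish values lay near the lowest signals well above background on those arrays, -6.42 and -6.90. With normexp background correction the changes were 5.38 in dish and 1.86 in allograft. The second probe of Mgst1, not well above background in WT dish, gave fitted changes of 8.94 ± 0.43 and 2.01 ± 0.43 in the same comparisons (limma adjusted p = 0.000103 and 0.0126).

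Mgst2, whose product can make a cysteinyl leukotriene from its epoxide and glutathione, had the smallest spread over the arrays. It read 3.11 and 2.92 in WT dish, 2.39 and 2.30 in Keap1 null dish, 3.41 and 3.33 in WT allograft, and 3.85 and 3.80 in Keap1 null allograft. Keap1 null cells were the lower ones in dish and the higher ones in allograft. Mgst2 was 1.59-fold lower in Keap1 null dish (-0.67 ± 0.10, limma adjusted p = 0.00763) and 1.37-fold higher in Keap1 null allograft (0.46 ± 0.10, adjusted p = 0.0159). The dish call ended without the second Keap1 null dish array (adjusted p = 0.0639) and without scaling between arrays (0.147). The allograft call ended without the second WT allograft array (0.0785), without the first Keap1 null allograft array (0.0676), with array medians as the scale (0.0658), without scaling (0.430) and with normexp background correction (0.0563).

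Mgst3, a microsomal enzyme with peroxidase activity, read 0.81 and 0.68 in WT dish, 1.09 and 1.01 in Keap1 null dish, -0.25 and -0.24 in WT allograft, and 2.43 and 1.91 in Keap1 null allograft. The dish groups lay next to each other and the allograft groups on either side of them. The dish difference of 0.30 ± 0.18 did not pass the test (limma adjusted p = 0.302), although the arrays did not overlap. In allograft Mgst3 was 5.33-fold higher in Keap1 null (2.41 ± 0.18, adjusted p = 0.000192).

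**Figure D4:**
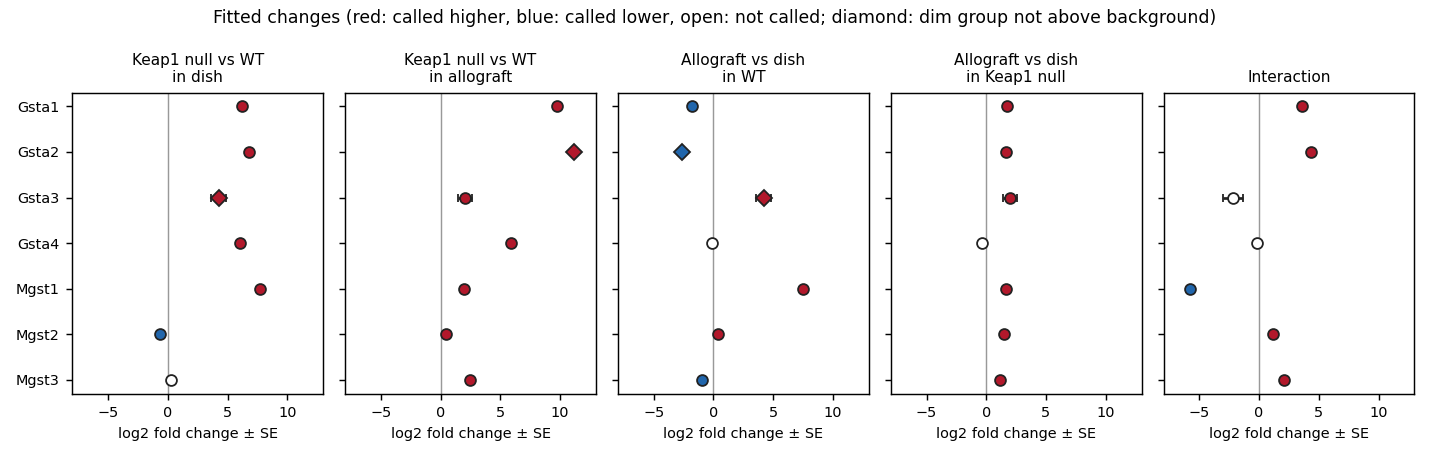
Fitted log2 fold change ± SE of the 7 transferases in the 5 comparisons, with red for called higher, blue for called lower and open symbols for not called. Diamonds mark fitted values with a dim group not above background, which are not bounds. All 7 were called higher in Keap1 null allograft, and Mgst1 had the largest of these fitted changes from dish to allograft in WT (7.47).

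The growth comparison asked how each line's transferases differed between tumour and dish. In WT, 3 members rose, beside 35.9% of all targets, and 3 fell, beside 32.1%. Mgst1 rose 177-fold (7.47 ± 0.12, limma adjusted p = 9.06e-07), and its second probe gave a fitted change of 8.53 ± 0.43 (adjusted p = 2.02e-05). Both sizes rest on WT dish signals near or in the background. Gsta3 rose at least 3.86-fold (adjusted p = 0.00133), with fitted changes of 3.21 and 5.19 without the first and the second WT allograft array. Mgst2 rose 1.28-fold (0.36 ± 0.10, adjusted p = 0.0232), but it fell, with a change of -0.66 (adjusted p = 0.00671), when array medians were the scale. Gsta1 fell 3.56-fold (-1.83 ± 0.13, adjusted p = 8.33e-05). Gsta2 was called lower, with a fitted change of -2.64 ± 0.18 (limma adjusted p = 5.9e-05). Only 1 array of 2 in WT dish and none in WT allograft was well above background. The size of this fall is therefore not known, and no bound is given. Mgst3 fell 1.99-fold (-0.99 ± 0.18, adjusted p = 0.00316). Gsta4 changed by -0.13 ± 0.12 and did not pass the test (adjusted p = 0.375). Without scaling between arrays the Mgst3 call ended (adjusted p = 0.0954). With normexp the calls of Gsta2 (-0.56, limma adjusted p = 0.0526) and Gsta3 (0.74, adjusted p = 0.0537) ended. The Gsta3 value is under the bound given here, but the normexp offset shrinks changes from dim signals and cannot test a bound. The Mgst2 call also ended with normexp (0.100), without the second WT dish array (0.109) and without either WT allograft array (0.100 and 0.0554). Array medians as the scale moved the median over all targets from -0.02 to -1.04 in WT and from 0.03 to -0.84 in Keap1 null, and each member's growth change moved down with it.

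Of the Keap1 null line, 6 members rose from dish to allograft, beside 35.9% of all targets, and none fell, beside 29%. Their median change was 1.65, against 0.03 over all targets. Gsta1 rose 3.42-fold (1.77 ± 0.13, limma adjusted p = 0.000102), Gsta2 3.20-fold (1.68 ± 0.18, adjusted p = 0.00038) and Gsta3 by 2.00 ± 0.61 on the log2 scale (adjusted p = 0.0285). The microsomal genes rose by 3.14-fold for Mgst1 (1.65 ± 0.12, adjusted p = 7.63e-05), 2.79-fold for Mgst2 (1.48 ± 0.10, adjusted p = 7.72e-05) and 2.17-fold for Mgst3 (1.12 ± 0.18, adjusted p = 0.0021). Gsta4 changed by -0.34 ± 0.12 (adjusted p = 0.0515). Without the first Keap1 null allograft array its change was -0.48 and passed the test (adjusted p = 0.0188). With array medians as the scale, Gsta4 was called lower (-1.20, adjusted p = 0.000414), and Gsta3 (1.13, adjusted p = 0.128) and Mgst3 (0.25, adjusted p = 0.324) no longer passed. The Gsta3 call also ended without any 1 of the 4 Keap1 null arrays (adjusted p from 0.0761 to 0.109).

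Markers of other cell types moved with these growth differences. All 11 macrophage markers tested rose from dish to allograft in both lines, with a median log2 change of 10.20 in WT and 8.48 in Keap1 null, and 9 of the 11 were lower in Keap1 null than in WT allograft. On all 4 dish arrays Adgre1, C1qc, Itgam, Cd163, Fcgr1 and Aif1 stayed in the background. Mast cell marker sums were 1.06 and 1.17 in WT allograft and 16.2 and 10.4 in Keap1 null allograft, and neutrophil sums were 1.85 and 2.06 against 3.72 and 4.05. All 6 mast cell markers tested were called higher in Keap1 null allograft. Of the 7 neutrophil markers tested, 3 were called higher and 1 lower there. The shares of all targets were 20.5% and 21.2%. From dish to allograft, 10 of the 11 fibroblast markers rose and 1 fell in each line. All 10 endothelial markers rose in both lines. In each line 35.9% of all targets rose. The part of these cell types in the allograft values of the transferases, Mgst1 in WT among them, was not tested.

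The interaction asked whether the difference between genotypes was itself different in allograft and dish. It was positive for 4 members, beside 15.8% of all targets, and negative for 1, beside 17%. The genotype difference of Gsta1 was larger in allograft by 3.61 ± 0.19 on the log2 scale (limma adjusted p = 0.000139) and that of Mgst3 by 2.11 ± 0.25 (adjusted p = 0.00186). For Mgst2 the difference turned from -0.67 in dish to 0.46 in allograft, a shift of 1.12 ± 0.15 (adjusted p = 0.00271). The fitted value for Gsta2, 4.32 ± 0.25 (adjusted p = 0.000183), uses WT allograft arrays that were not well above background. For Mgst1 the interaction was -5.82 ± 0.16 (adjusted p = 6.28e-05), and -6.93 ± 0.61 with the second probe (adjusted p = 0.000619), so its genotype difference was smaller in allograft. For Gsta4 the interaction was -0.20 ± 0.17 (adjusted p = 0.427), and its sign turned to 0.94 with quantile normalization (adjusted p = 0.00814). For Gsta3 it was -2.20 ± 0.86 (adjusted p = 0.105). Without the first WT allograft array it was -1.21 (adjusted p = 0.0479) and without the second -3.19 (adjusted p = 0.00356), in fits that no longer hold the spread of that group and take the spread from the other groups. The comparisons share arrays, so a member's values in them are not independent.

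Over the 8 arrays, the likeness of patterns was measured as the root mean square difference of log2 signals after each gene was centred on its own mean, over 14850 other genes with a symbol. Among the members, Gsta1 and Gsta2 were the closest pair, at 0.588, against their own spreads about the mean of 4.09 and 4.63. Car8 (0.703), Amph (0.948) and Fndc3c1 (0.990) were nearest to Gsta1, and the same 3 genes, led by Fndc3c1 (0.663), were nearest to Gsta2. Gsta4 had Fam181b (0.503), Hoxd11 (0.582) and Tbx5 (0.690) nearest, of which Hoxd11 and Tbx5 encode transcription factors known for limb patterning. Kcnmb4 (0.861), Hoxd8 (0.949) and the matrix protease gene Mmp3 (0.959) were nearest to Mgst1. Maob (0.538) and P2ry10b (0.547) were among the 3 nearest to Gsta3. Mgst2, with a spread of 0.545, had Colec11 (0.109), Rflnb (0.111) and Stard5 (0.121), and Mgst3, with a spread of 0.871, had Gbe1 (0.132), Pla2g4a (0.142) and Gpc6 (0.152).

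The other glutathione transferases, of the mu, pi, theta, omega, zeta and related classes, did not share 1 direction. Of 17 tested, 8 were higher and 3 lower in Keap1 null dish (median 0.36), beside 11.4% and 9.68% of all targets. In Keap1 null allograft 7 were higher and 6 lower (median 0.07), beside 20.5% and 21.2%. In dish, Gstt4 was 3.40-fold higher (limma adjusted p = 0.003), Gstm3 3.36-fold higher (adjusted p = 0.000168) and Gstt1 at least 2.87-fold higher (adjusted p = 0.0225). In allograft, the omega class genes Gsto2 and Gsto1 were 19.2-fold and 5.43-fold higher (adjusted p = 6.43e-06 and 2.94e-05). Hpgds, the prostaglandin D synthase of macrophages and mast cells, was 6.69-fold lower there (adjusted p = 3.84e-05). From dish to allograft 7 rose and 5 fell in WT, beside 35.9% and 32.1% of all targets. In Keap1 null 6 rose and 6 fell, beside 35.9% and 29%. These growth counts of 17 lie near the shares of all targets. Gsto2 fell 4.80-fold in WT and rose 4.58-fold in Keap1 null (adjusted p = 6.53e-06 and 9.73e-06), and Hpgds rose at least 23.0-fold in WT (adjusted p = 1.06e-06).

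The other 3 MAPEG genes are Alox5ap, which presents arachidonic acid for leukotriene synthesis, the leukotriene synthase Ltc4s and the prostaglandin synthase Ptges. In dish, Alox5ap and Ptges were 2.25-fold and 2.05-fold higher in Keap1 null (limma adjusted p = 0.000386 and 0.00368). In allograft, Keap1 null read 3.52-fold lower for Alox5ap and 8.76-fold lower for Ltc4s, and Ptges was 7.35-fold higher (adjusted p = 3.7e-05, 0.000133 and 3.78e-05). In the WT line, growth as allograft went with a rise of Alox5ap by 90.4-fold and of Ltc4s by 19.7-fold (adjusted p = 6.71e-07 and 1.74e-05). The corresponding rises in Keap1 null were 11.4-fold and 2.04-fold (adjusted p = 3.02e-06 and 0.00562). Both are known as genes of myeloid cells. Between the allografts, macrophage marker sums were lower and mast cell and neutrophil sums higher in Keap1 null, as given above. The part of these cells in the values of Alox5ap and Ltc4s was not tested.

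The list called glutathione supply holds 9 genes of glutathione synthesis, turnover and use, Glrx and Ggct among them. Of these, 3 were higher and 2 lower in Keap1 null dish (median 0.24), beside 11.4% and 9.68% of all targets. In Keap1 null allograft 6 were higher and 3 lower (median 1.46), beside 20.5% and 21.2%. Slc7a11, which brings in cystine, was 16.2-fold higher in Keap1 null dish and 278-fold higher in Keap1 null allograft (limma adjusted p = 6.07e-05 and 6.43e-06). Gclc, the catalytic subunit of the first synthesis step, was 2.05-fold and 9.92-fold higher (adjusted p = 0.00367 and 2.73e-05), and its partner subunit Gclm 9.04-fold higher in allograft (adjusted p = 1.66e-05). Those lower were Oplah, 2.29-fold in dish (adjusted p = 0.0168), with Gss, the second synthesis step (log2 -0.64 in dish, adjusted p = 0.0147), and in allograft both of these and Ggct. From dish to allograft in WT, 7 of the 9 fell and 1 rose, beside 32.1% and 35.9% of all targets. Gclm (3.58-fold), Slc7a11 (2.35-fold) and Gclc (2.27-fold) were among those that fell, with adjusted p of 3.37e-05, 0.000775 and 0.000457. The medians of the 9 genes were -0.80 in WT and 0.68 in Keap1 null. In Keap1 null 6 rose and 2 fell, beside 35.9% and 29% of all targets. There Slc7a11 was 7.28-fold and Gsr, which regenerates reduced glutathione, 2.55-fold higher (adjusted p = 3.19e-05 and 5.34e-05).

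Of 16 genes tested for export and the later mercapturate steps, 5 were higher and none lower in Keap1 null dish (median 0.02). The shares of all targets were 11.4% and 9.68%. In Keap1 null allograft 4 were higher and 5 lower (median -0.39), beside 20.5% and 21.2%. The conjugate pump genes Abcc4 and Abcc1 were 20.1-fold and 4.39-fold higher in Keap1 null allograft (limma adjusted p = 8.73e-06 and 2.75e-05). In dish Anpep, an aminopeptidase, was 3.80-fold and Abcc4 3.04-fold higher (both adjusted p = 0.000338). From dish to allograft, 6 rose and 5 fell in WT, beside 35.9% and 32.1% of all targets. In Keap1 null 9 rose and 4 fell, beside 35.9% and 29%. In WT, Abcc3 rose 31.6-fold (adjusted p = 2.21e-06), the dipeptidase gene Dpep2 at least 27.8-fold (adjusted p = 1.96e-06) and Ggt5, which can cleave leukotriene conjugates, at least 22.9-fold (adjusted p = 2.17e-05).

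Among 11 other enzymes of lipid aldehydes and peroxides, 6 were higher in Keap1 null dish, beside 11.4% of all targets. In Keap1 null allograft 9 were higher, beside 20.5%. None was lower in either, beside 9.68% and 21.2%. The median changes of these 11 enzymes were 0.45 and 1.07. The aldehyde dehydrogenase gene Aldh3a1 was at least 6.60-fold higher in dish and at least 65.5-fold higher in allograft (limma adjusted p = 0.000115 and 1.19e-05). The carbonyl reductase gene Cbr3 was 13.8-fold and 7.57-fold higher (adjusted p = 2.3e-05 and 1.81e-05), and Ptgr1, which reduces reactive alkenals, was 8.51-fold higher in allograft (adjusted p = 4.49e-05). Gpx4, the phospholipid hydroperoxide peroxidase, differed by -0.36 in dish and -0.20 in allograft and did not pass the test (adjusted p = 0.0703 and 0.193). From dish to allograft 3 rose and 4 fell in WT, beside 35.9% and 32.1% of all targets. The 3 include Akr1b7, which was not well above background on any WT array. In Keap1 null 6 rose and none fell, beside 35.9% and 29%.

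**Figure D5:**
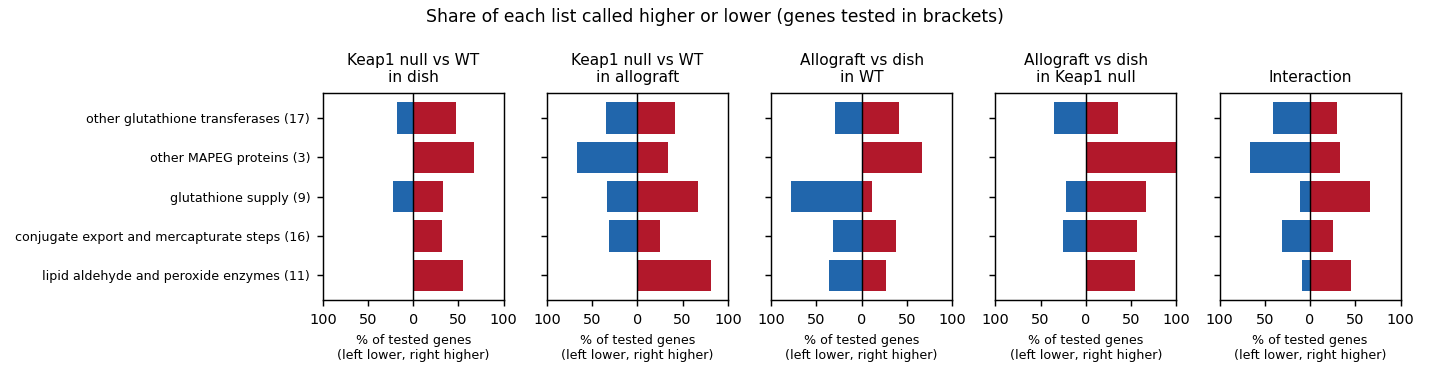
Share of the tested genes of 5 pathway lists that were called higher (right, red) or lower (left, blue) in each of the 5 comparisons, in percent, with the number tested in brackets. The lipid aldehyde and peroxide enzymes had no lower calls between genotypes (6 and 9 of 11 higher, beside 11.4% and 20.5% of all targets). From dish to allograft in WT, 7 of 9 genes of the glutathione supply list fell, beside 32.1% of all targets.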

How the data were processed

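Per the file headers, the deposited scanner files are 1-colour (Cy3) intensities from Agilent Feature Extraction, version 10.7.3.1. The deposited processed signal is an intensity with the background already subtracted and no scaling between arrays, and flags for outliers, saturation and signal well above background are other columns deposited beside it. The deposited value table holds the same intensities, unscaled (largest difference 0.496%).

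Members, lists and tests were chosen with earlier results of these data known. Signals were put on the log2 scale minus the 75th percentile of the array. Control and outlier spots were left out and spots of a probe averaged. Of 41174 probes, the 30358 that both arrays of some group read well above background were tested. Design accessions were matched to RefSeq symbols of GRCm38.p6, for names only because the headers name an older build (26690 probes named, 14484 not). The brightest tested probe stood for its gene, giving 23177 targets, 14857 of them with a symbol. One fit of 4 group means with limma 3.58.1 in R 4.3.3 (4 residual and 1.84 prior degrees of freedom) gave 5 comparisons, and its code was tested on simulated data. For a bound, the dim group's signal on each array was raised to the lowest one well above background where it was under it. Named genes were all members, Keap1, Nfe2l2, at most 3 called genes of largest change per pathway list and comparison, the 3 nearest patterns per member, and markers dim or brightest in a group; 1 of the nearest patterns is not reported here. Gss, Gpx4 and the falling supply genes were named after their values were seen. Promoter windows are RefSeq's. The number of arrays limits the precision. Replicate number, slide and scan coincide in these arrays, and same-numbered arrays deviated together (correlations from 0.246 to 0.430 over the 6 pairs of groups), so they were treated as paired in an alternative fit. Other alternatives changed the scaling, background correction, filter, probe rule and arrays used. Normexp used median signals with an offset of 50 and was chosen after seeing the data.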

Additional observations from a re-analysis of the deposited data

Results flagged for a closer look

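The difference between Keap1 null and WT was itself different in allograft and dish for 5 of the 7 transferases, by limma's interaction term with Benjamini-Hochberg adjustment over all targets, of which 15.8% had a positive and 17% a negative interaction called. On the log2 scale the interaction was 3.61 for Gsta1, 4.32 for Gsta2, 2.11 for Mgst3 and 1.12 for Mgst2. It was -5.82 for Mgst1, whose WT signal was far higher in allograft than in dish. For Mgst2 the genotype difference was negative in dish and positive in allograft. The Gsta2 value rests on WT arrays near or under background. WT allograft signals near background enter the Gsta1 value, and WT dish signals near background enter the Mgst1 value. No explanation of these differences was tested.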

How the results depend on the processing

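The replicate block, which is also the slide block, changed no member call, with 6, 7, 6, 6 and 5 members called as without it, while calls over all targets rose from 4875 to 6566, 9669 to 11529, 15762 to 17242, 15031 to 16655 and 7609 to 9473. With normexp, 3 in place of 6 members passed from dish to allograft in WT, since Gsta2 (adjusted p = 0.0526), Gsta3 (0.0537) and Mgst2 (0.100) did not. Normexp adds an offset of 50, which shrinks changes from dim signals. It also lowered the largest changes: the Gsta2 genotype difference in allograft became 6.40, that of Gsta1 7.43, the Gsta3 difference in dish 0.75 (limma adjusted p = 0.147) and the Mgst1 interaction -3.52. Signs turned for Mgst2 in WT growth with array medians (-0.66), Gsta4 in WT growth without scaling (0.25), the Gsta4 interaction with quantile normalization (0.94) and the Gsta3 interaction with normexp (0.60). The cause was not tested. Array medians and quantile normalization also called Gsta4 lower in WT growth (-1.15 and -1.14). Without scaling, Mgst3 in WT growth (0.0954) and the Mgst2 interaction (0.0860) lost their calls and the Gsta3 interaction gained one (0.0397). Gsta3 lost its call in allograft without the filter on dim probes (0.0572) and in Keap1 null growth with quantile normalization (0.133). Gsta4 in Keap1 null growth passed with the filter on all arrays (0.0398) and with probe means (0.0489). Leaving out 1 array at a time gave 5 to 6, 5 to 7, 5 to 6, 5 to 6 and 5 to 6 members called, with no sign turned. Calls over all targets in dish were 2645 without scaling, 2854 with normexp and 2391 to 3232 without a dish array. Their share higher was 54.0%, against 37.5% with array medians and 76.7% without scaling. In allograft it was 49.1% against 30.6% without scaling, in WT growth 52.8% against 25.9% and 78.6%, in Keap1 null growth 55.3% against 27.4% with array medians and 44.4% with quantiles, and for the interaction 48.2% against 23.3% without scaling. Gsta2 in WT and Gsta3 in WT dish are limited by background, and Gsta1 in WT allograft and Mgst1 in WT dish lay near it.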
